A study of Homo sapiens with 8 samples.

Results

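The transcripts of 10 genes tied to blood formation were followed in endothelial cells made from a human induced pluripotent stem cell line. The genes are MS4A6A, MS4A4A, RUNX1, GFI1, MYB, SPI1, PTPRC, KIT, KITLG and LYL1, and each was found by its symbol among the 30386 genes of the deposited count table. They were chosen from measured values of the same comparison that is described below, so their levels are given as a description, without tests. The cells were of 2 kinds, endothelial cells (iEC) and retinal endothelial cells (iREC), with 4 samples each. Both kinds came from WTC-TJP1, a single iPSC line, and both were taken at passage 1, so what is described is 1 genetic background at 1 stage of culture. Replicates are lettered C to F in each kind, and the labels do not say whether these were separate differentiations, so p-values measure only the spread between these samples, which may be technical. No other treatment is named in the labels.

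Hemogenic endothelium is the part of the embryonic endothelium that buds off blood cells. In that passage RUNX1 is the switch gene, GFI1 is a RUNX1 target that silences the endothelial programme, and MYB maintains the stem and progenitor cells that emerge. SPI1 (PU.1) drives the myeloid lineages, PTPRC encodes CD45, the surface phosphatase of nearly all white blood cells, and KIT and its ligand KITLG (stem cell factor) form a growth factor pair that progenitors depend on. MS4A6A and MS4A4A encode membrane proteins with 4 predicted passes through the membrane and are best known from monocytes, macrophages and microglia, while LYL1 is a basic helix-loop-helix factor shared by endothelium and blood.

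Promoter windows of 300 bases around the RefSeq transcript starts (build GRCh38.p14) were found for 9 of the 10 genes, 14 windows in all, and were searched on both strands for short words of 3 factor families. The words were TGTGGT for RUNX (present in 13.1% of the 35116 windows of this length), AGATAA for GATA (10.3%) and AGGAAG for ETS (33.6%). Among the 14 windows the RUNX word lay in 1, of GFI1, the GATA word in 1, of LYL1, and the ETS word in 4. Matches to different words did not overlap in these windows, and a match describes letters, not a bound site. The 4 windows shown belong to the genes at or near 0 in iEC whose iREC samples all lay above all iEC samples. GFI1, which held the RUNX word, overlapped between the groups and is not shown. Windows are written 5′ to 3′ on the gene's own strand, with matches to the ETS word on either strand in capitals. The windows let the letters around RefSeq starts of the 4 genes be read beside their counts.

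MS4A6A: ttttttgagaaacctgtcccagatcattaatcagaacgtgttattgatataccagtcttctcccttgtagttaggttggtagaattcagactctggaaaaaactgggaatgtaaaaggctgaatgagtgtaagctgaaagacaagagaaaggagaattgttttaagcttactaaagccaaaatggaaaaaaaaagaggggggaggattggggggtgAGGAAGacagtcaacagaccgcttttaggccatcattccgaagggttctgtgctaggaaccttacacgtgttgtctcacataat

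MS4A4A: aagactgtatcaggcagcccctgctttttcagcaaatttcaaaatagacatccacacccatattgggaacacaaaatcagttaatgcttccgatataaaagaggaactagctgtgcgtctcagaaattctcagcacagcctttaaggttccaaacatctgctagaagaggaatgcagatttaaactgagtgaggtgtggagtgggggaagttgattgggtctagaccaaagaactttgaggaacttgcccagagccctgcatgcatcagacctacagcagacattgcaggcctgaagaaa

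PTPRC: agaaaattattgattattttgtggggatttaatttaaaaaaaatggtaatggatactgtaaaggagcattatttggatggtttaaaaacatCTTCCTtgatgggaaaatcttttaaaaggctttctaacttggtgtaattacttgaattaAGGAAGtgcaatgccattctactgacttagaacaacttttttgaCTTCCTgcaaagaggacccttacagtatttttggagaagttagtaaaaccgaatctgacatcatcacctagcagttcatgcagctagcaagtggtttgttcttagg

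MYB: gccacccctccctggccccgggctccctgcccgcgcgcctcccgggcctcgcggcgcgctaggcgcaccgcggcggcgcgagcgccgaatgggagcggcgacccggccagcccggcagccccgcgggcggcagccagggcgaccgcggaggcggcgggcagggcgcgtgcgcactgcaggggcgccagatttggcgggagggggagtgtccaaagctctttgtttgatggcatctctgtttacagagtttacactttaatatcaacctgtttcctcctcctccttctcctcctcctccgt

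The MS4A6A window (chr11:60184617-60184916, minus strand) is 1 of 4 for that gene, the one placed on the start of the deposited gene, and it held the ETS word at 1 position. Another of the 4, chr11:60183034-60183333, which is not shown, held the ETS word at 2 positions, and the remaining MS4A6A windows held none. The PTPRC window (chr1:198638790-198639089, plus strand) held it at 3 positions. The windows of MS4A4A (chr11:60280416-60280715, plus strand) and MYB (chr6:135181058-135181357, plus strand) held none of the 3 words. The RefSeq start used for MS4A4A lies well inside the longer gene of the deposited table. The PTPRC window also lies inside its deposited gene, which starts at 198638457.

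The iEC libraries held 14877502 to 16971865 counts each and the iREC libraries 13739364 to 15987839. Levels are given as CPM, counts relative to the library total after TMM scaling between libraries, and a count of 3 in a library was taken as the floor of detection, which corresponds to 0.178 to 0.215 CPM. Over the whole table, 3829 of 15330 tested genes (25.0%) differed between the groups by edgeR's quasi-likelihood test at a Benjamini-Hochberg adjusted p under 0.05, 13.2% higher and 11.7% lower in iREC. Among those 3829 genes, iEC D was the iEC sample nearest to the iREC mean in 1610 (42.0%), against 14.6% to 24.3% for the other iEC samples. These are whole-culture libraries, in which fewer cells of a type and less RNA per cell cannot be told apart.

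Of the 10 genes, 4 were higher in iREC than in iEC with no overlap between the groups (MS4A6A, MS4A4A, MYB and PTPRC), 2 were lower with no overlap (RUNX1 and KITLG), and 4 overlapped (GFI1, SPI1, KIT and LYL1). Over all tested genes, 29.1% had groups that did not overlap. Because the choice of genes used this contrast, nothing is read from these counts against that percentage. MS4A6A, MS4A4A, MYB and PTPRC passed the filter on low counts only through their iREC samples, and SPI1 did not pass it.

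**Figure D1:**
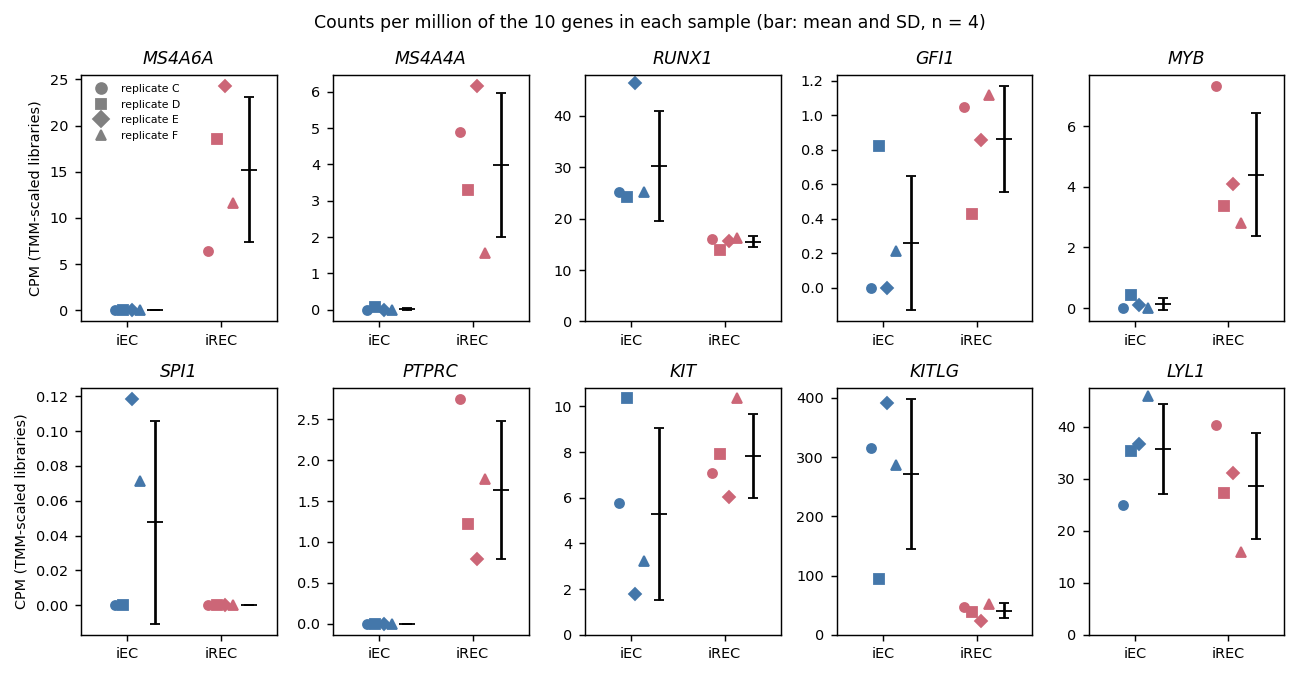
CPM of each of the 10 genes (vertical axis, a separate linear scale per gene) in the 4 iEC and 4 iREC samples, with the mean and SD of each group beside the points and 1 marker shape per replicate letter. MS4A6A and PTPRC sit at 0 in all iEC samples, RUNX1 and KITLG lie lower in all iREC samples, and the KIT, LYL1 and GFI1 points of the groups overlap.

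RUNX1 (ENSG00000159216, GRCh38 chromosome 21, 34787801 to 36004667, minus strand), the gene most closely tied to the endothelial-to-haematopoietic transition, was lower in iREC than in iEC. It was 25.2, 24.3, 46.4 and 25.1 CPM in iEC samples C to F, and 16.1, 13.9, 15.6 and 16.2 CPM in iREC samples C to F. Every iREC sample lay under every iEC sample, and iEC E stood well above the other iEC samples. The means were 30.2 ± 10.8 and 15.5 ± 1.07 CPM (SD, n = 4 each), a log2 fold change of -0.97 ± 0.23 (SE), or 1.95-fold lower in iREC. Within iREC the highest sample was 1.17 times the lowest.

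GFI1 (ENSG00000162676, chromosome 1, 92474762 to 92486876, minus strand), a zinc finger repressor, was close to the floor in both groups. Its counts were 0, 13, 0 and 3 in iEC samples C to F, and 16, 6, 14 and 17 in the iREC samples in the same order. A single iEC sample, D, held 13 of the 16 iEC counts and lay above iREC D, so the groups overlapped. The means were 0.259 ± 0.389 CPM in iEC and 0.861 ± 0.309 CPM in iREC (SD, n = 4 each), with a log2 fold change of 1.71 ± 0.94 (SE). Without iEC D the log2 fold change was 3.53, and under limma-voom it was 2.83.

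MYB (ENSG00000118513, chromosome 6, 135181315 to 135219173, plus strand), a transcription factor of progenitors that also acts in other dividing cells, had 0, 7, 2 and 0 counts in iEC samples C to F. In iREC the counts were 112, 47, 67 and 43, or 7.33, 3.36, 4.09 and 2.82 CPM. All iREC samples lay above all iEC samples, iREC C highest and iREC F lowest. The means were 0.140 ± 0.209 and 4.40 ± 2.02 CPM (SD, n = 4 each) and the log2 fold change 4.86 ± 0.82 (SE), 29.1-fold, a value that rests on 9 iEC counts in all. Without iEC D, which held 7 of these, the log2 fold change was 6.43.

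SPI1 (ENSG00000066336, chromosome 11, 47354860 to 47378576, minus strand) was at or under the floor in both groups. It had 0, 0, 2 and 1 counts in iEC and 0 in each iREC sample, which allows at most 3 counts per library, and no fold is given. Each of the 4 iREC libraries that held MS4A6A and PTPRC counts thus held no count of this myeloid factor.

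LYL1 (ENSG00000104903, chromosome 19, 13099033 to 13103161, minus strand) was counted in every sample. The iEC samples had 25.0, 35.4, 36.6 and 46.0 CPM in the order C, D, E and F, and the iREC samples 40.3, 27.2, 31.2 and 15.9 CPM. The groups overlapped, with iREC F lowest of the 8 samples and iEC F highest. Means were 35.8 ± 8.59 and 28.6 ± 10.1 CPM (SD, n = 4 each), with a log2 fold change of -0.32 ± 0.28 (SE).

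KIT (ENSG00000157404, chromosome 4, 54657918 to 54740715, plus strand) is the receptor of the pair. It was 5.79, 10.4, 1.78 and 3.22 CPM in iEC samples C to F, and 7.07, 7.92, 6.05 and 10.4 CPM in iREC. The iEC samples spread 5.84-fold between D and E and enclosed all 4 iREC values, so the groups overlapped. The means were 5.29 ± 3.77 and 7.85 ± 1.84 CPM (SD, n = 4 each), and the log2 fold change was 0.57 ± 0.48 (SE).

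KITLG (ENSG00000049130, chromosome 12, 88492793 to 88580851, minus strand) was the most abundant of the 10 genes per length in iEC. It was 315, 93.5, 391 and 287 CPM in iEC samples C to F, against 46.5, 38.8, 23.6 and 52.6 CPM in iREC. Every iREC sample lay under every iEC sample, and iEC D came nearest to them. From 272 ± 127 CPM the mean went to 40.4 ± 12.5 CPM (SD, n = 4 each), a log2 fold change of -2.75 ± 0.42 (SE), or 6.73-fold lower in iREC. An antisense gene that overlaps it, AC024941.2, had a mean of at most 0.0949 CPM in either group.

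PTPRC (ENSG00000081237, chromosome 1, 198638457 to 198757476, plus strand) had no count in any iEC sample, which allows up to 3 counts in each. The iREC counts were 42, 17, 13 and 27 in C, D, E and F, or 2.75, 1.21, 0.794 and 1.77 CPM, with a mean of 1.63 ± 0.845 CPM (SD, n = 4). All 4 iREC samples lay above the floor, C highest and E lowest. Against the floor the iREC mean was at least 7.60-fold higher. The antisense gene AL157402.2, which lies within it, had a mean of 0 CPM in iEC and 0.0521 CPM in iREC.

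Other leukocyte genes were read beside PTPRC, and their levels, like those of all further genes, are means ± SD of the 4 samples of a group. Of 16 pan-leukocyte markers, 10 were tested, 0 were called higher and 3 were called lower in iREC by edgeR. These were RAC2, a small GTPase of blood cells (168 ± 84.0 to 13.02 ± 9.50 CPM; edgeR adjusted p 0.0019; SE 0.59 around a log2 fold change of -3.69), HCLS1, a substrate of haematopoietic kinases (128 ± 37.4 to 19.3 ± 3.26 CPM; edgeR adjusted p 8.2e-05), and LAPTM5, a lysosomal membrane protein (113 ± 10.3 to 43.6 ± 14.1 CPM; edgeR adjusted p 0.00186). The summed level of the 16 markers was 373 to 596 CPM in iEC and 118 to 155 CPM in iREC. Without RAC2, their highest gene over all 8 samples, though not in iREC, the sums were 273 to 322 and 91.9 to 148 CPM. These sums still held HCLS1 and LAPTM5, and the other 7 tested markers were called in neither direction. The lower sums are therefore not a fall of the list as a whole. CD52 and CD84 were at or under 3 counts in every sample. The part of blood cells in the PTPRC counts was not tested.

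MS4A6A (ENSG00000110077, chromosome 11, 60172014 to 60184666, minus strand) had no count in any iEC sample, which allows up to 3 counts in each, and 98, 259, 398 and 178 counts in iREC samples C to F. These were 6.41, 18.5, 24.3 and 11.7 CPM, with a mean of 15.2 ± 7.82 CPM (SD, n = 4). All iREC samples were far above the floor, and E was 3.79 times C. The iREC mean was at least 70.9-fold higher than the iEC floor.

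MS4A4A (ENSG00000110079, chromosome 11, 60185702 to 60317944, plus strand) begins, as deposited, 1035 bases from the start of MS4A6A and runs the other way. The window placed on its RefSeq start, chr11:60280416-60280715, lies well inside this extent. MS4A4A had 0, 1, 0 and 0 counts in iEC and 75, 46, 101 and 24 counts in iREC samples C to F, or 4.91, 3.28, 6.17 and 1.57 CPM. No iREC sample came near the iEC samples, and E was again the highest. The iREC mean was 3.98 ± 1.99 CPM (SD, n = 4), and the ratio of the group totals was 251, with an exact 95% interval of 44.6 to 9937 that covers counting error only. Without iEC D, the sample with the single count, iEC was at 0 and no ratio is given. MS4A4E, which overlaps MS4A4A on the other strand, was at 0 in iEC and 0.0535 CPM in iREC.

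The rest of this gene family was mostly without counts. Of 16 further genes of the MS4A family and the related TMEM176 pair, 8 had no row in the table and 12 had no row or at most 3 counts in every sample. The only one tested was MS4A6E, which lies 16886 bases beyond MS4A4A in the same gene cluster. As deposited, it overlaps MS4A7 and MS4A14 on the same strand, which were at 0 in iEC and at means of 0.151 and 0.0662 CPM in iREC. How reads in the shared stretches were assigned is not given in the sources used here. MS4A6E had no count in any iEC sample and 148, 193, 205 and 61 counts in iREC samples C to F (9.99 ± 4.35 CPM, SD, n = 4), at least 46.5-fold higher in iREC (edgeR adjusted p 0.000493). MS4A6E passed the filter on low counts only through its iREC samples, so its p-value is given as a description. MS4A2, the beta chain of the high-affinity IgE receptor and a mast cell gene, had 42, 42, 141 and 4 counts in iREC against 0, 0, 2 and 0 in iEC. The ratio of its group totals was 117 (exact 95% interval 31.9 to 969, counting error only), it fell below the filter, and it was not tested. Where fewer samples relaxed the filter, without iREC F or any 1 of the iEC samples, MS4A2 was the second gene of the list called higher. Reads that match several MS4A genes could have been split between them, since how the authors' counting treated such reads is not given in the sources used here.

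**Figure D2:**
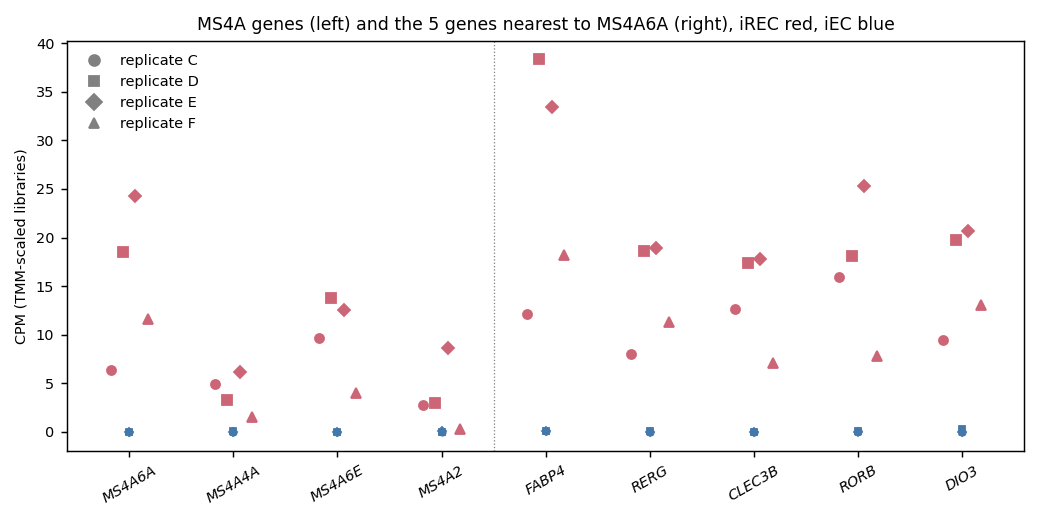
CPM (linear axis) of 4 MS4A genes and of the 5 genes nearest to MS4A6A in each sample, iREC in red, iEC in blue, 1 marker shape per replicate letter. All iEC points lie at or close to 0, and iREC D and E are the highest pair for MS4A6A and for each of the 5 genes on the right.

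The genes nearest to MS4A6A were sought over the 8 samples among 13032 tested protein-coding genes, by the root mean square difference of log2 CPM after each gene was centred on its own mean. They were FABP4, a fatty acid carrier (0.197), RERG, a Ras-like GTPase (0.258), CLEC3B, which encodes tetranectin (0.451), RORB, a retinoid-related orphan receptor (0.526), and DIO3, a thyroid hormone deiodinase (0.531). FABP4 was 12.2, 38.3, 33.5 and 18.2 CPM in iREC samples C to F, and RERG 8.05, 18.6, 18.9 and 11.3 CPM. In iEC none of the 5 exceeded 4 counts in a sample. By the same measure MS4A4A ranked 120 (1.22), MYB 220 (1.58) and PTPRC 301 (1.80). For genes at or near 0 in iEC, this measure depends strongly on the level in iREC. The iREC means were 15.2 CPM for MS4A6A, 3.98 CPM for MS4A4A, 4.40 CPM for MYB and 1.63 CPM for PTPRC. The ranks and the nearest genes therefore do not show which genes vary together. MS4A6A and MS4A4A were highest in iREC E, whereas MYB and PTPRC were highest in iREC C.

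Macrophage genes were checked beside MS4A6A and MS4A4A. Of 23 macrophage and monocyte markers, 8 had no row (FCGR3A, C1QA, C1QB, C1QC, FOLR2, F13A1, VSIG4 and CD86) and 14 had no row or at most 3 counts in every sample, CD14, CD68 and TYROBP among them. Only 2 were tested, and they went in opposite directions. MRC1, the mannose receptor, which specialised endothelium also expresses, rose from 6.72 ± 9.53 to 412 ± 222 CPM (adjusted p by edgeR 0.00432; SE 1.10 around a log2 fold change of 5.94). Most of the iEC level came from iEC D, at 20.7 CPM against 0.237 to 4.62 CPM in the others, and the log2 fold change was 7.66 without iEC D. FCER1G, the common Fc receptor gamma chain, fell from 26.1 ± 8.64 to 4.27 ± 2.01 CPM (adjusted p by edgeR 0.00139; SE 0.39 around a log2 fold change of -2.61). The summed level of the list was 25.8 to 38.4 CPM in iEC and 206 to 687 CPM in iREC, and without MRC1 it was 16.4 to 34.9 and 3.54 to 10.3 CPM.

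Markers of other blood lineages were read in the same way. Among 10 granulocyte markers, the only tested one was CTSG (cathepsin G), which passed the filter only through its iREC samples. It rose from 0.0632 ± 0.126 to 9.97 ± 6.58 CPM (adjusted p by edgeR 0.00119), with all of its iEC counts in iEC D. Of the 10, 6 had no row or at most 3 counts in every sample. Of 7 mast cell markers 5 were at or under that limit, and 0 were tested. Of 14 erythroid markers 12 were at or under it, HBA1, HBA2 and HBB having no row, and EPOR, the erythropoietin receptor, was 9.0 ± 1.74 and 16.4 ± 6.16 CPM (adjusted p by edgeR 0.0599, DESeq2 adjusted p 0.0274). Of 12 lymphoid markers 7 had no row, IL7R was 1.20 ± 0.843 CPM in iEC and rose to 48.4 ± 15.6 CPM (adjusted p by edgeR 0.000128), and without IL7R the list summed to 2.01 to 4.16 CPM in iEC and 0.393 to 3.48 CPM in iREC. Of 9 megakaryocyte markers 2 were tested and 0 called.

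Endothelial markers were present in both groups, at summed levels of 7886 to 9815 CPM in iEC and 4737 to 10560 CPM in iREC. All 13 were tested, 3 were called higher (TEK, EMCN and CLDN5) and 5 lower in iREC, PECAM1, CDH5 and EGFL7 the most abundant of these. The CLDN5 call (edgeR adjusted p 0.049) was lost when any sample but iREC F was left out, and the CDH5 call (edgeR adjusted p 0.0298) when iREC D or any iEC sample except C was left out. The count of 8 called went to 5 without iREC D and to 10 with DESeq2. KDR, the main VEGF receptor and the highest of them over all 8 samples, was 2033 ± 578 and 2627 ± 1016 CPM (adjusted p by edgeR 0.424).

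**Figure D3:**
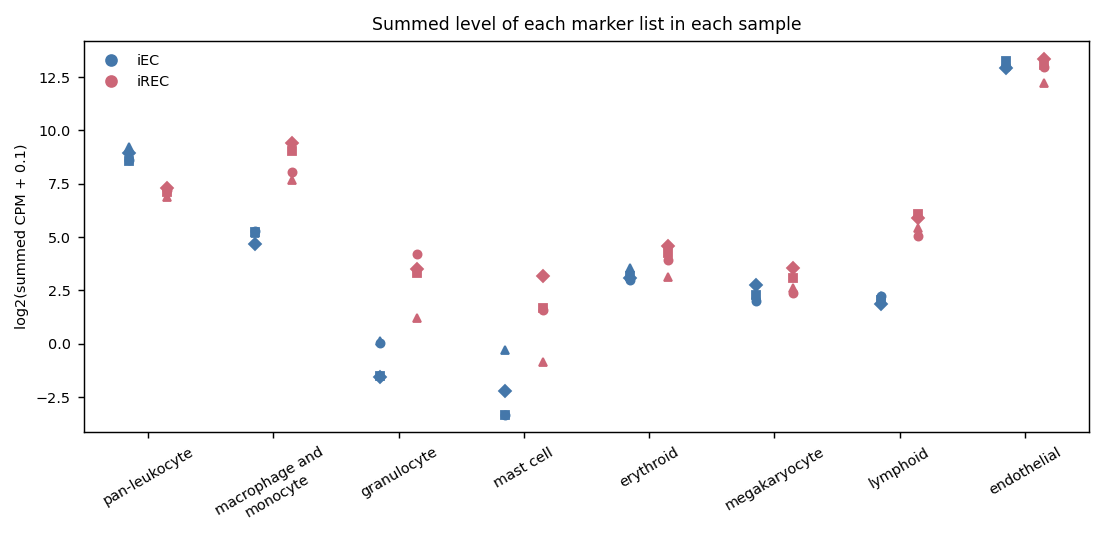
Summed level of each marker list in each sample, as log2 of the summed CPM plus 0.1, iEC in blue and iREC in red with 1 marker shape per replicate letter. The endothelial sums are far above all blood lineage sums. The pan-leukocyte sums are lower in all iREC samples, with RAC2, HCLS1 and LAPTM5 the only markers of that list called. The macrophage, granulocyte and lymphoid sums are higher in iREC, where 1 gene in each (MRC1, CTSG and IL7R) carries most of the sum.

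Levels were compared between genes only per length, in the FPKM values the authors deposited. In iREC the order was LYL1 (9.01), KITLG (6.40), MS4A6A (2.58), KIT (1.39), MS4A4A (1.32), RUNX1 (0.977), MYB (0.786), GFI1 (0.257), PTPRC (0.175) and SPI1 (0), as means of 4 samples. Neighbours in this order overlapped except MYB with GFI1 and PTPRC with SPI1, so MS4A6A could not be ranked apart from KIT or KITLG. In iEC the order began with KITLG (43.5, range 14.8 to 62.2), LYL1 (11.4), RUNX1 (1.93) and KIT (0.938), and the remaining 6 had means of at most 0.0777. The gaps between LYL1 and RUNX1 and between KIT and GFI1 were the only ones in iEC without overlap.

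**Figure D4:**
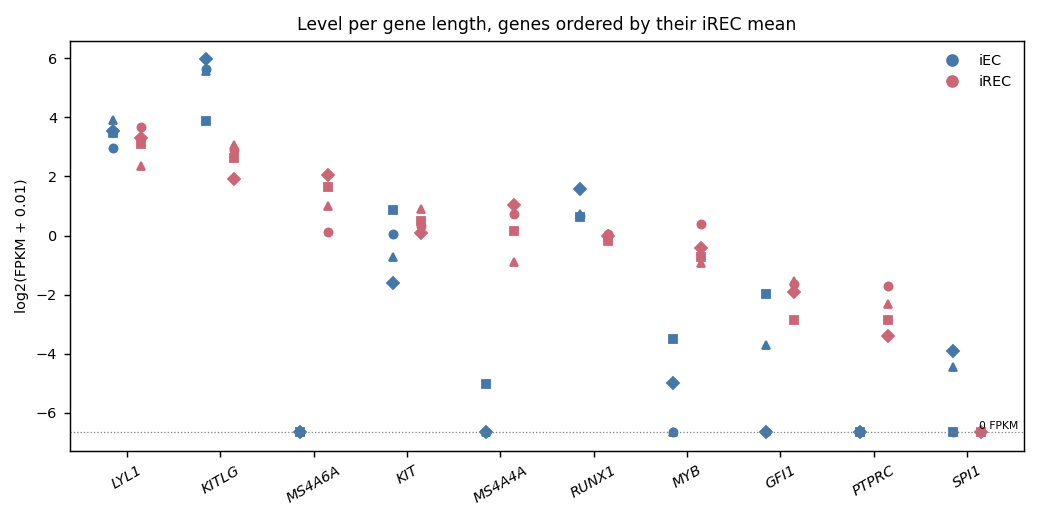
Level per gene length of the 10 genes in each sample, as log2 of the deposited FPKM plus 0.01, ordered by their iREC mean, iEC in blue and iREC in red; the dotted line marks 0 FPKM. LYL1 and KITLG have the highest means in both groups, and MS4A6A and PTPRC lie on the line in all iEC samples.

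The iEC samples were not equally far from iREC in these genes. iEC D was the sample nearest to the iREC mean for MS4A4A, RUNX1, GFI1, MYB and KITLG, 5 of the 9 tested genes. For MS4A4A this rests on 1 count in iEC D. The 42.0% given above covers only called genes, whereas these 9 were taken whether called or not, so the shares are not compared. For MS4A6A and PTPRC all iEC samples were tied at 0. Among the iREC samples no single one led throughout, C being highest for MYB, PTPRC and LYL1, E for MS4A6A and MS4A4A, and F for RUNX1, GFI1, KIT and KITLG.

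The surrounding pathway was read from 5 lists of 91 distinct genes that contain none of the 10. Of these, 53 were tested and 22 were called, 12 higher and 10 lower in iREC, 41.5% against 25.0% over all tested genes. The lists were drawn up with earlier results of these data known, so this share is a description.

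Of 29 transcription factors of hemogenic endothelium and blood stem cells, 19 were tested, 7 were called higher, 1 lower and 11 were not called, with a median log2 fold change of 0.54 against 0.02 over all tested genes. ETV6, an ETS-family repressor needed by blood stem cells, rose from 34.1 ± 5.18 to 64.5 ± 4.45 CPM (adjusted p by edgeR 0.00123; SE 0.13 around a log2 fold change of 0.92). FLI1, an ETS factor of endothelium and blood, rose from 200.5 ± 46.8 to 327 ± 73.3 CPM (adjusted p by edgeR 0.0393), and LMO2, a bridging protein of the TAL1 complex, from 56.3 ± 18.8 to 111.5 ± 29.5 CPM (adjusted p by edgeR 0.0314). The FLI1 call was lost without iEC C, E or F or iREC C, D or E, and the LMO2 call without iEC D or F or iREC D or E, with adjusted p of up to 0.0996 and 0.0862 by edgeR over all alternatives. TCF3, which encodes the E proteins that pair with LYL1 and TAL1, fell from 178 ± 12.5 to 107.5 ± 12.5 CPM (adjusted p by edgeR 0.00214; SE 0.12 around a log2 fold change of -0.73).

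The other factors called higher were GATA2, IKZF2, RUNX1T1 and MYBL1, named here after their values were seen. The MYBL1 call was lost without iEC E or without iREC D. RUNX1T1, a corepressor known as a fusion partner of RUNX1 in leukaemia, rose from 3.47 ± 1.44 to 35.4 ± 8.55 CPM (adjusted p by edgeR 0.000142; SE 0.32 around a log2 fold change of 3.35). GATA2, which acts in the emergence of blood stem cells, rose from 33.3 ± 3.55 to 48.3 ± 3.38 CPM (adjusted p by edgeR 0.0109). CBFB, the partner that RUNX proteins need to bind DNA well, had 58.6 ± 5.79 CPM in iEC, had 45.7 ± 10.8 CPM in iREC and was not called (edgeR adjusted p 0.159). TAL1, at 39.8 ± 3.16 and 53.3 ± 22.9 CPM, was not called either (edgeR adjusted p 0.355). Without iREC D, 5 genes of this list were called in place of 8.

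Of 19 surface genes of hemogenic endothelium and progenitors, 13 were tested, 3 were called higher and 4 lower, with a median log2 fold change of -0.25. CD34, a sialomucin of progenitors and of vessels, rose from 113.5 ± 56.7 to 405 ± 206 CPM (adjusted p by edgeR 0.0199; SE 0.47 around a log2 fold change of 1.84). PROM1, which encodes CD133, went from 0.538 ± 0.271 to 16.8 ± 18.4 CPM (adjusted p by edgeR 0.00287), with iREC F at 43.9 CPM and iREC C at 3.66 CPM. Its log2 fold change of 4.93 went to 3.82 without iREC F. KCNK17, a potassium channel, rose from 0.079 ± 0.158 to 12.5 ± 2.87 CPM (adjusted p by edgeR 0.000267), with all of its iEC counts in iEC D. KCNK17 passed the filter on low counts only through its iREC samples.

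CD44, the hyaluronan receptor and a marker of the cells in transition, fell from 300.2 ± 107 to 51.3 ± 15.3 CPM (adjusted p by edgeR 0.000458; SE 0.31 around a log2 fold change of -2.55). ADGRG1, an adhesion receptor also known as GPR56, fell from 176 ± 37.7 to 5.82 ± 1.44 CPM (adjusted p by edgeR 8.69e-06; SE 0.24 around a log2 fold change of -4.92), and PROCR, the protein C receptor, from 94.5 ± 42.4 to 35.4 ± 7.16 CPM (adjusted p by edgeR 0.00921). CD34 and PROM1 thus moved opposite to CD44, ADGRG1 and PROCR within 1 list. The fourth gene called lower was THY1, named after its values were seen (48.4 ± 28.8 to 14.3 ± 6.39 CPM; edgeR adjusted p 0.0216), and its call was lost without iEC C, iREC D or iREC E.

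Of 14 genes that carry or damp the KIT signal, all were tested, 1 was called higher, 4 lower and 9 were not called, with a median log2 fold change of -0.22. SHC1, an adaptor, fell from 599 ± 99.8 to 328 ± 39.9 CPM (adjusted p by edgeR 0.00325; SE 0.15 around a log2 fold change of -0.87), and PIK3R1, the regulatory subunit of PI 3-kinase, from 82.2 ± 9.52 to 46.5 ± 1.56 CPM (adjusted p by edgeR 0.00101; SE 0.12 around a log2 fold change of -0.82). GRB2, an adaptor, went from 188 ± 19.6 to 144 ± 9.84 CPM (adjusted p by edgeR 0.0342), and SOS1, the exchange factor that GRB2 brings to the membrane, from 45.7 ± 8.35 to 66.8 ± 2.31 CPM (adjusted p by edgeR 0.0236). The GRB2 call was lost without iEC C, E or F or iREC C, D or E, and the SOS1 call without iREC D or E. LYN, a Src-family kinase, was the remaining gene called lower (edgeR adjusted p 0.0373) and was named after its values were seen, and its call was lost when any sample other than iEC D or iREC F was left out. The count of 5 called genes went to 3 without iEC C, iEC E, iREC C or iREC E, and to 2 without iREC D.

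Of 13 ligand genes of blood formation other than KITLG, 6 were tested and 1 was called, with a median log2 fold change of 0.74. CSF3, which encodes the granulocyte colony-stimulating factor, had 4.62 ± 2.55 CPM in iEC (SD, n = 4) and 3 counts in all iREC samples together, 2 of them in F and 1 in C (edgeR adjusted p 0.000655). The ratio of its iREC to iEC totals was 0.0105 (exact 95% interval 0.00216 to 0.0311, counting error only). CXCL12, the chemokine that holds progenitors in their niche, was 31.0 ± 12.7 and 47.1 ± 13.9 CPM and was not called (edgeR adjusted p 0.179). A second gene was called without iEC C, CXCL12 itself, and without iEC F, CSF1, the macrophage colony-stimulating factor, both higher in iREC.

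**Figure D5:**
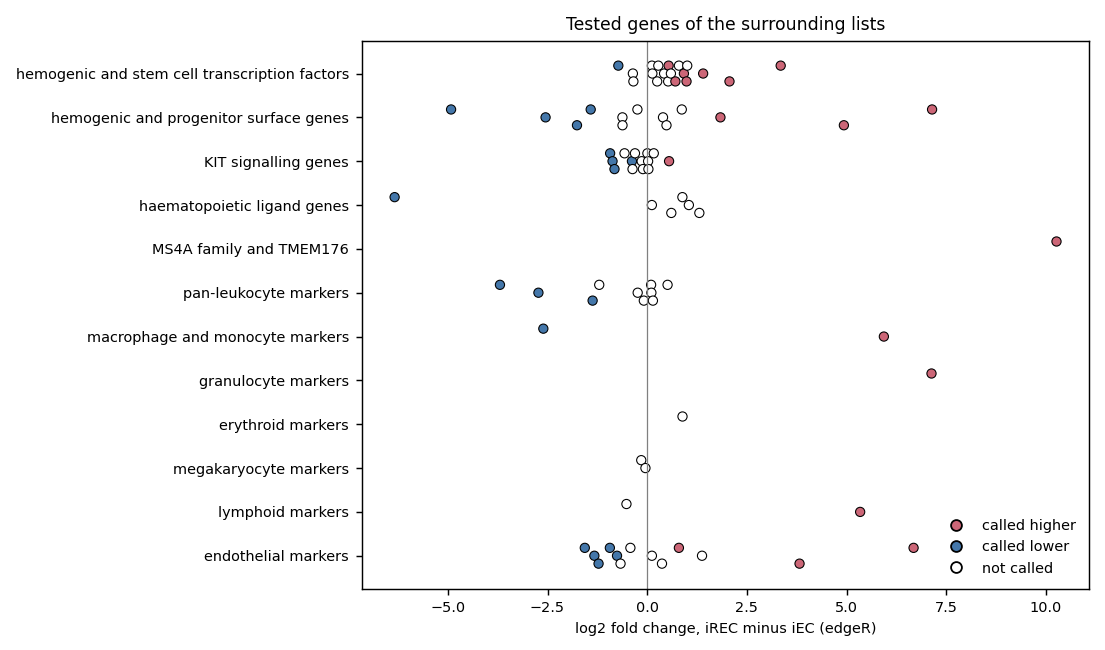
Log2 fold change (iREC minus iEC, edgeR) of each tested gene of the 5 pathway lists and the marker lists, filled red where called higher, blue where called lower and white where not called. The transcription factor, surface gene and KIT signalling lists hold calls on both sides of 0. The only ligand call, CSF3, is lower, and the only MS4A family call, MS4A6E, is higher. The pan-leukocyte calls are all lower. Points beyond 5 on either side include KCNK17, CSF3, MS4A6E and CTSG, which have few or no counts in 1 group and whose fitted values depend on the prior count.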

How the data were processed

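Per the labels' protocols, poly-T beads picked out the messenger RNA, and dUTP marked the second cDNA strand. The submitters' processing notes name fastp, HISAT2 2.0.5 and the hg38 build; the counting program, its annotation and its strand setting are not given in the sources used here, so reads of overlapping genes on opposite strands may not be told apart. The authors deposited whole-number read counts per gene, per the file headers, with no gene under 2 counts in total. The FPKM columns are the authors' deposited values and equal the count divided by a size factor per sample, by kilobases of gene length and by the same constant, 15.3832, in every sample. All 30386 identifiers, starts and ends matched GENCODE on GRCh38. All 8 sample columns were used, and 0 further sample columns were present.

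From the counts, edgeR 4.0.16 (R 4.3.3) kept 15330 genes by filterByExpr, scaled libraries by TMM and compared the groups with glmQLFit and glmQLFTest over all 8 samples, with Benjamini-Hochberg adjustment over all tested genes and a threshold of 0.05. Fitted fold changes used edgeR's default prior count, standard errors were derived from the coefficient and the F statistic, and log2 CPM used a prior of 2. Called list genes with few or no counts in 1 group, such as MS4A6E, CTSG, KCNK17 and CSF3, passed filterByExpr only through the other group. A group at 0 was set at the floor of 3 counts per library. No molecular identifiers are named, so floors and exact 95% intervals cover counting error only. Named list genes are up to 3 called genes per list and direction in order of mean CPM, the 2 most abundant marker genes per list (not all printed), and the 5 genes nearest to MS4A6A. The member genes and lists were chosen with earlier results of these data known. Promoter windows are RefSeq's, on GRCh38.p14. Alternatives were DESeq2 size factors, unscaled library sizes, dropping the filter, a stricter one (1 CPM throughout a group with mean counts from 50), DESeq2 1.42.0, limma-voom (limma 3.58.1), a prior count of 2, a replicate block, and each sample left out in turn.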

Additional observations from a re-analysis of the deposited data

Results flagged for a closer look

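Groups of 4 samples were searched for a sample whose gap to the nearest other exceeded Dixon's 95% limit as a share of the group's whole range. Of 43 groups examined 3 held one. The limit marks about 1 in 20 groups by chance where values are normally distributed. Several groups hold counts near 0, for which that rate does not apply, so the shares are not compared. RUNX1 was 46.4 CPM in iEC E, where the other iEC samples lay between 24.3 and 25.2 CPM, a gap of 0.96 of the range. MS4A4A was 0.0632 CPM in iEC D, which is a single count, with the other iEC samples at 0, so its gap is the whole range by construction. The summed level of the mast cell markers was 0.716 CPM in iEC F, where the other iEC samples lay between 0 and 0.118 CPM, a gap of 0.835 of the range.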

How the results depend on the processing

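Of 123 values of the 9 tested genes under the alternatives (SPI1 gave none), 120 stayed within 1 SD of the replicates and 0 changed sign. The other 3 moved further: GFI1 to a log2 fold change of 2.83 under limma-voom and 3.53 without iEC D, and MYB to 6.43 without iEC D. The values of MS4A6A and PTPRC were bounds and those of MS4A4A ratios of totals, which cannot change sign. With iEC at 0, leaving out iEC C, D or E left the bounds of MS4A6A and PTPRC unchanged by construction. Over the alternatives the log2 fold change ran from -1.07 to -0.69 for RUNX1 and from -3.04 to -2.53 for KITLG, and the bound for MS4A6A from 56.7-fold to 84.5-fold. The genes called over all genes ran from 2660 (without iREC D) to 4214 (without iREC F) when samples were left out, and reached 4664 with DESeq2. Called list genes in all ran from 15 to 29 when samples were left out. By list these ranges were 5 to 12 for the transcription factors, 6 to 9 for the surface genes, 2 to 5 for KIT signalling, 1 to 2 for the ligands and 1 to 2 for the MS4A family. The ligand count of 1 went to 0 with the stricter filter, which removes CSF3, and the MS4A family count of 1 went to 2 with no filter, which admits MS4A2; no filter also moved the median log2 fold change of all tested genes from 0.02 to 0.15. The cause of the other changes was not tested. At this depth a gene under 3 counts in a library is not measurable, which covers SPI1 in all samples.

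The groups share replicate letters. Deviations of same-letter samples correlated, across 15330 genes, by 0.168 (C), -0.0794 (D), 0.0291 (E) and 0.25 (F). Between different letters the values ran from -0.221 (iEC D with iREC F) to 0.178 (iEC D with iREC C). The value for F was thus the highest of all pairs, but not every sample correlated best with its own letter. Whether a shared letter marks a shared differentiation is not in the labels and was not tested. The letters were treated as names only, with a block on them as an alternative. With a replicate block 3334 genes were called in place of 3829, and 2 ligand genes in place of 1 (CSF1 in addition). LMO2, GRB2, CDH5, CLDN5 and MYBL1 were not called with the block. With all samples and no block, FLI1 was not called with unscaled library sizes, GRB2 with no filter, and CLDN5 with DESeq2 size factors, unscaled library sizes or limma-voom.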

Other observations

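Some blood-lineage genes outside the tests were counted in iREC. GP9, a platelet glycoprotein, had a mean of 0.892 ± 0.342 CPM in iREC and 0.0316 ± 0.0632 CPM in iEC (SD, n = 4 each). SPN, which encodes the leukocyte sialoglycoprotein CD43, was 1.51 CPM in iREC F and at most 0.327 CPM in the other iREC samples. HLF, a transcription factor of blood stem cells, had 2 counts in each iREC sample and 0 in each iEC sample, under the floor of 3 counts. FLT3, a receptor of early progenitors, was at 0 in all iEC samples and at most 0.262 CPM in iREC.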
